A study of Homo sapiens with 16 samples.

Results

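The genes described here are 10 long non-coding RNAs that carry small nucleolar RNAs (snoRNAs) in their introns, namely SNHG1, SNHG5, SNHG6, SNHG7, SNHG8, SNHG12, SNHG15, SNHG16, GAS5 and ZFAS1. They were chosen by symbol, through the match of their Ensembl identifiers to GENCODE, and are 10 of the 28951 genes in the table. All 10 passed the filter on low values, which kept 23968 genes for testing. RNA came from 4 non-small cell lung cancer lines treated for 48 hours with Combo, which was 5 µM MYCi975 given together with 25 µM TMP195, or with Vehicle, which was DMSO. MYCi975 blocks the transcription factor MYC, and TMP195 the class IIa histone deacetylases. By the study's labels, H460 and H1703 are responsive lines, whereas HCC827 and H441 are non-responsive. There were 2 libraries for each line and treatment, 16 in all, and all cells were grown in RPMI with 10% serum. The single agents were not analysed here. The labels do not state separate cultures for a group's 2 libraries, so p-values measure the spread between these libraries, which may be technical.

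A snoRNA is a short RNA that guides the chemical modification of ribosomal RNA, and in humans most are cut out of the introns of longer transcripts, called host genes. The hosts described here are not known to work through a protein product, and GAS5 is the best studied of them. Many hosts begin with a C followed by a run of pyrimidines, the terminal oligopyrimidine (TOP) start shared with ribosomal protein mRNAs, through which the kinase mTOR controls translation. Because ribosomes engage their short open reading frames, the spliced RNAs of GAS5 and several SNHG genes are degraded by nonsense-mediated decay when translation is active, and they are known to accumulate when translation or growth is arrested. MYC is known to raise the transcription of genes for ribosome synthesis.

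The libraries held 8493271 to 13604150 reads in listed genes, of which 12.1 to 22.6% were mitochondrial. The label of each line was checked on marker genes. EGFR, amplified in HCC827, had 128000 to 136000 normalised reads in HCC827 and at most 5340 in the other lines, and PDGFRA, amplified in H1703, had 4700 to 11400 in H1703 and at most 1.09 elsewhere. The epithelial markers KRT19, EPCAM and CDH1 were at or near 0 in H1703, with at most 9.11 normalised reads, and KRT8 and KRT18 were low there, at 56.5 to 195. In H460, EPCAM and CDH1 were near 0, at most 8.8, while KRT8, KRT18 and KRT19 were high, at 3720 to 20100. SFTPB, a surfactant gene reported for H441, was low in that line, at 8.17 to 97.7 normalised reads. NKX2-1, the other marker listed for H441, had 1020 to 1760 normalised reads there and 403 to 1020 in HCC827. It had at most 2.28 in H460 and 5.84 in H1703. Of 7 markers of leukocytes, endothelium and fibroblasts, 4 were in the table, and their summed level was 4.73 to 78.6 normalised reads in Combo libraries and 1.95 to 139 in Vehicle libraries. In such bulk RNA, fewer cells of a type and less RNA per cell cannot be told apart.

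In GENCODE 29 on GRCh38, GAS5 (ENSG00000234741) lies at chr1:173863900-173868882 on the minus strand. SNHG5 (ENSG00000203875) lies at chr6:85660950-85678748 and SNHG6 (ENSG00000245910) at chr8:66921684-66926398, both on the minus strand. SNHG8 (ENSG00000269893) is at chr4:118278709-118279823 and ZFAS1 (ENSG00000177410) at chr20:49278178-49295738, both on the plus strand. SNHG1 (ENSG00000255717) is at chr11:62851988-62855914, minus strand. SNHG7 (ENSG00000233016) is at chr9:136721366-136728184, SNHG12 (ENSG00000197989) at chr1:28578538-28583132 and SNHG15 (ENSG00000232956) at chr7:44983023-44986961, all on the minus strand. SNHG16 (ENSG00000163597) is at chr17:76557766-76565348 on the plus strand.

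RefSeq (GRCh38.p14) places 37 snoRNA genes within the spans of the 10 hosts. GAS5 has 11 of them, SNHG1 has 9, SNHG12 has 4, SNHG16 and ZFAS1 have 3 each, SNHG5 and SNHG7 have 2 each, and SNHG6, SNHG8 and SNHG15 have 1 each.

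The start of the transcript is the feature these hosts are known to share. GENCODE 29 lists 136 transcripts for the 10 genes, and 27 of them, from 9 genes, begin with a C followed by at least 3 pyrimidines, a start found in 3.81% of all 206694 transcripts of that release. The transcripts of SNHG15 hold none. For 7 hosts the first 40 bases of the transcript whose TOP-like start is annotated most often are shown, because they let the member that fell be compared with those that rose. Capitals mark the opening run of pyrimidines.
GAS5: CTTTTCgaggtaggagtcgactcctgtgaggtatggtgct
SNHG16: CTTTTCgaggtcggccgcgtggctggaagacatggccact
SNHG5: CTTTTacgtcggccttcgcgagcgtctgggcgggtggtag
ZFAS1: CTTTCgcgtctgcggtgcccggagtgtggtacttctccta
SNHG8: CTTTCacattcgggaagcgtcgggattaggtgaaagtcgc
SNHG12: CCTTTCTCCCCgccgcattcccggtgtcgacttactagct
SNHG7: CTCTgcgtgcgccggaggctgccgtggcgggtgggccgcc
GAS5 and SNHG16 are identical over their first 11 bases, although the RNA of GAS5 rose and that of SNHG16 fell in the same 3 lines. The GAS5 start shown is that of 6 of its 29 transcripts, and the RefSeq start of GAS5 lies further upstream. For SNHG16 the start shown is that of 2 of 8 transcripts, for SNHG5 of 3 of 23 and for ZFAS1 of 2 of 10. For SNHG8 it is that of 1 of 5, for SNHG12 of 2 of 17 and for SNHG7 of 3 of 4.

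RefSeq promoters were held for 8 of the 10 genes, and 5 of these, SNHG5, SNHG7, SNHG8, SNHG12 and ZFAS1, have the letters TATAA between 40 and 16 bases before the start on the coding strand, against 3.91% of all 35116 promoters. GAS5 and SNHG1, which rose in H1703, and SNHG16, which fell, do not have it there. For GAS5 and SNHG1 the RefSeq start lies upstream of the TOP-like transcript start, whose own promoter was not searched. The last 50 bases before and the first 50 after the start are shown for 3 members that rose and for SNHG16, at chr6:85678684-85678783 (minus strand), chr4:118278712-118278811, chr20:49278592-49278691 and chr17:76557714-76557813 (plus strand) of GRCh38.p14. The promoters of GAS5 and SNHG1 are not shown. A C followed by at least 3 pyrimidines lies between 10 bases before and 15 after the start in 6 of the 8 promoters, against 52.4% of all promoters. Capitals mark TATAA and the run of pyrimidines nearest the start.
SNHG5: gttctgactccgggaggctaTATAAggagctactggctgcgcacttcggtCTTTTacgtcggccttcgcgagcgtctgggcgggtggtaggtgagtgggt
SNHG8: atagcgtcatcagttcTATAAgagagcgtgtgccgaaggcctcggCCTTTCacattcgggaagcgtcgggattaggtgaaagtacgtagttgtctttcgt
ZFAS1: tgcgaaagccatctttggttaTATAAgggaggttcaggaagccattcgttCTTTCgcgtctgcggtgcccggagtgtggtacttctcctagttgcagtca
SNHG16: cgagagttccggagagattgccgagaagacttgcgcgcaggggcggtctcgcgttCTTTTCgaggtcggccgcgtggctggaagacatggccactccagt
The E-box letters CACGTG, the best known binding sequence of MYC and the same on both strands, were in 1 of the 8 promoter windows of 300 bases, that of SNHG7, against 7.26% of all promoters. The letters TGATGCAA, or their reverse complement, one form of the sequence bound by ATF4 with its partners, were in 0 of 8, against 0.866% of all promoters.

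In the lines called responsive, most hosts had more RNA with Combo. In H460, 5 of 10 members passed the threshold upward and 1 downward, against 14.1% and 12.6% of all tested genes. In H1703, 9 passed upward and 1 downward, against 17.9% and 17.6%. The threshold is an adjusted p under 0.05, from limma with Benjamini-Hochberg adjustment over all tested genes. The median change of the members was 0.46 in H460 and 0.86 in H1703 on the log2 scale, beside 0.05 and 0.08 over all tested genes. Median-centring of each library lowers every change by 0.19 in H460 and 0.24 in H1703, and the upward share of called genes is then 32.6% in place of 52.7% in H460, and 31.1% in place of 50.4% in H1703. After that shift, the calls of 8 of the 10 members stood in H1703 and those of all 6 stood in H460.

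GAS5, which accumulates in growth-arrested cells and is known to bind the glucocorticoid receptor, had the largest change of the members in both lines. With Combo, H460 had 2801 and 3178 normalised reads of GAS5, against 1300 and 1167 with Vehicle. Normalised reads are reads divided by the library's size factor. In H1703, GAS5 had 2177 and 2314 normalised reads with Combo, against 588 and 635 with Vehicle. Both Combo libraries were above both Vehicle libraries in each line. The changes were 1.27 ± 0.13 on the log2 scale in H460 (2.42-fold; adjusted p = 3.59e-07) and 1.87 ± 0.13 in H1703 (3.66-fold; adjusted p = 1.21e-09), each with the standard error of the fit and 2 libraries per group.

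SNHG5, the host of SNORD50A and SNORD50B, had the next largest change in H460. Its Combo libraries had 577 and 736 normalised reads in H460, against 344 and 333 with Vehicle. In H1703 it had 296 and 284 with Combo, against 94.5 and 77.1 with Vehicle. The groups did not overlap, and SNHG5 rose by 0.94 ± 0.14 in H460 (adjusted p = 2.89e-05) and by 1.73 ± 0.14 in H1703 (adjusted p = 5.87e-09).

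SNHG8, the host of SNORA24, had a change close to that of SNHG5 in H1703. H460 had 320 and 347 normalised reads of it with Combo, against 233 and 155 with Vehicle. H1703 had 294 and 274 with Combo, against 83.8 and 82.7 with Vehicle. SNHG8 rose by 0.80 ± 0.18 in H460 (adjusted p = 0.00157) and by 1.74 ± 0.18 in H1703 (adjusted p = 1.38e-07). The 2 Vehicle libraries of H460 lay far apart, and without the second of them the H460 change was 0.51, with an adjusted p of 0.0563.

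ZFAS1, transcribed away from the start of ZNFX1 and host to the SNORD12 family, had 186 and 221 normalised reads in H460 with Combo, against 110 and 122 with Vehicle. In H1703 it had 145 in both Combo libraries, against 47.7 and 73.6 with Vehicle. It rose by 0.80 ± 0.19 in H460 (adjusted p = 0.00325) and 1.25 ± 0.19 in H1703 (adjusted p = 2.48e-05). SNHG6, the host of SNORD87, had 258 and 301 normalised reads in H460 with Combo, against 191 and 143 with Vehicle. Its level in H1703 was 198 and 188 with Combo, against 98.4 and 104 with Vehicle. The groups did not overlap in either line, and SNHG6 rose by 0.74 ± 0.14 (adjusted p = 0.000528) and 0.91 ± 0.14 (adjusted p = 4.16e-05) in H460 and H1703. When the model was fitted to the H460 libraries alone, SNHG6 and SNHG8 missed the threshold there, with adjusted p of 0.0648 and 0.0808.

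**Figure D1:**
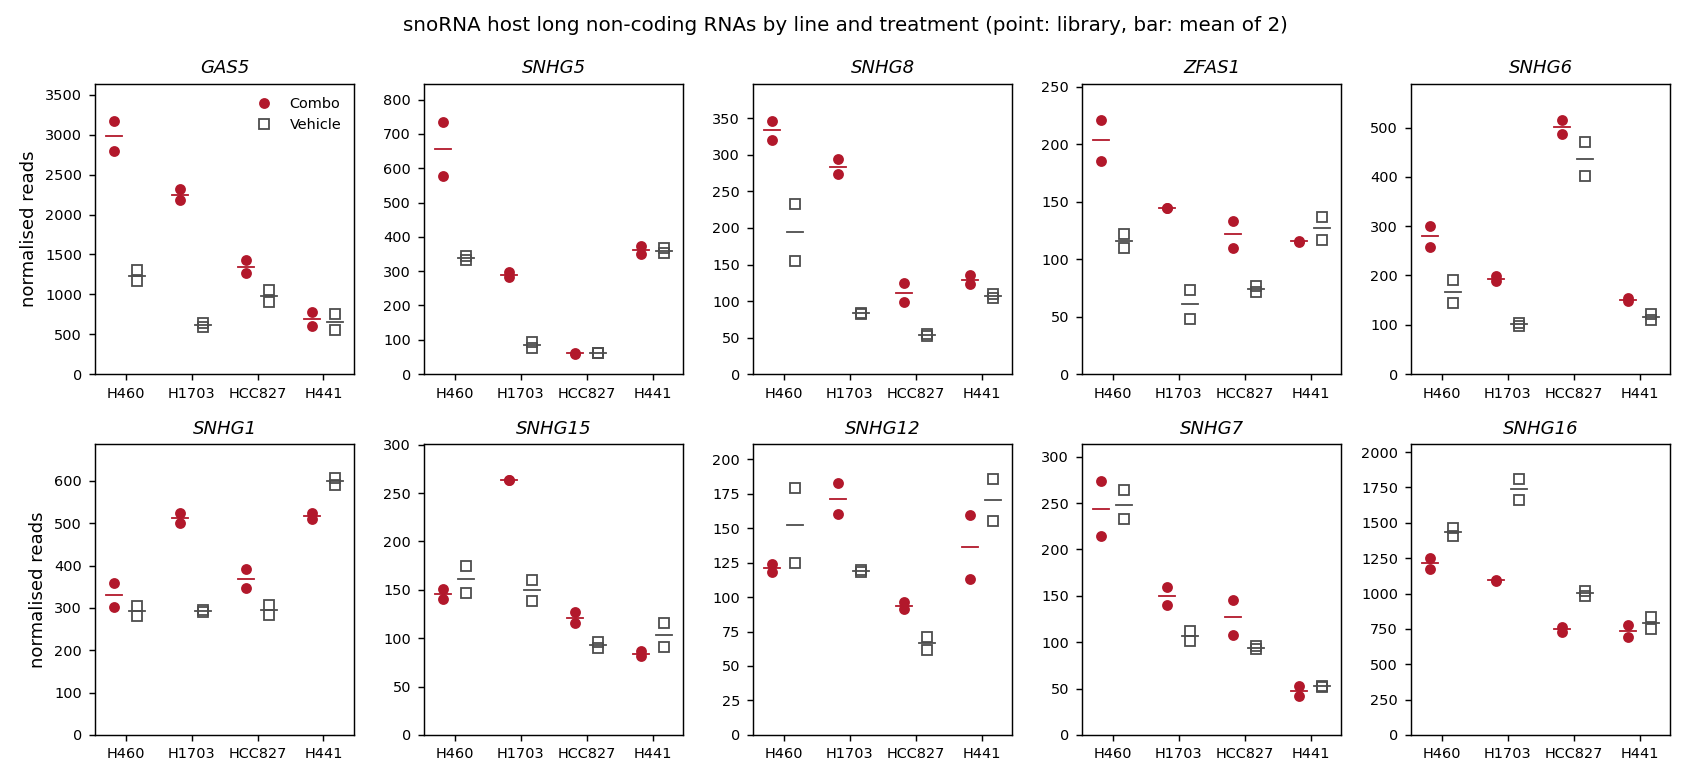
Normalised reads of each member (y axis, from 0, a scale of its own per panel) in each library, by line (x axis); filled circles are Combo, open squares Vehicle, and bars the mean of 2 libraries. GAS5 reaches 3178 normalised reads in a Combo library of H460, and SNHG16 is the member whose Combo libraries lie below its Vehicle libraries in H460, H1703 and HCC827.

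The other rising members passed the threshold in H1703 and not in H460. SNHG1, which hosts SNORD22 and SNORD25 to SNORD31, had 500 and 524 normalised reads in H1703 with Combo, against 296 and 289 with Vehicle. The H460 libraries overlapped, at 303 and 359 with Combo and 303 and 281 with Vehicle. SNHG1 rose by 0.80 ± 0.11 in H1703 (adjusted p = 6.2e-06), while the H460 value was 0.18 ± 0.11 (adjusted p = 0.271). SNHG15, the host of SNORA9, had 264 normalised reads in both Combo libraries of H1703, against 138 and 160 with Vehicle. In H460 its levels were 151 and 140 with Combo, against 175 and 147 with Vehicle. It rose by 0.81 ± 0.16 in H1703 (adjusted p = 0.000417) and its H460 value was -0.14 ± 0.16 (adjusted p = 0.594).

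SNHG12 and SNHG7 passed the threshold in H1703 narrowly. SNHG12, the host of SNORD99 and 3 H/ACA snoRNAs, had 183 and 160 normalised reads there with Combo, against 120 and 118 with Vehicle, and rose by 0.51 ± 0.19 (adjusted p = 0.0429). In H460 it had 118 and 124 with Combo and 179 and 125 with Vehicle, a change of -0.30 ± 0.19 (adjusted p = 0.291). SNHG7, the host of SNORA17A and SNORA17B, had 159 and 140 normalised reads in H1703 with Combo, against 101 and 112 with Vehicle, and rose by 0.48 ± 0.18 (adjusted p = 0.0481). Its H460 libraries overlapped, with 273 and 214 with Combo and 264 and 233 with Vehicle. Both H1703 calls ended when each library was centred on its median, at 0.27 for SNHG12 (adjusted p = 0.334) and 0.23 for SNHG7 (adjusted p = 0.372). Leaving out any 1 of the 4 H1703 libraries also ended both, with adjusted p of 0.0664 to 0.231 for SNHG12 and 0.0723 to 0.243 for SNHG7.

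SNHG16, which hosts SNORD1A, SNORD1B and SNORD1C, fell. In H1703 it had 1098 and 1087 normalised reads with Combo, against 1661 and 1812 with Vehicle, a change of -0.67 ± 0.09 (adjusted p = 3.58e-06). H460 had 1173 and 1253 with Combo, against 1462 and 1404 with Vehicle. The H460 groups did not overlap, and the change was -0.24 ± 0.09 (adjusted p = 0.0446). That H460 call sits at the threshold: 9 of the 16 single-library omissions ended it, with adjusted p up to 0.202 (without the first H460 Vehicle library), and it ended under quantile normalisation (adjusted p = 0.0537).

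**Figure D2:**
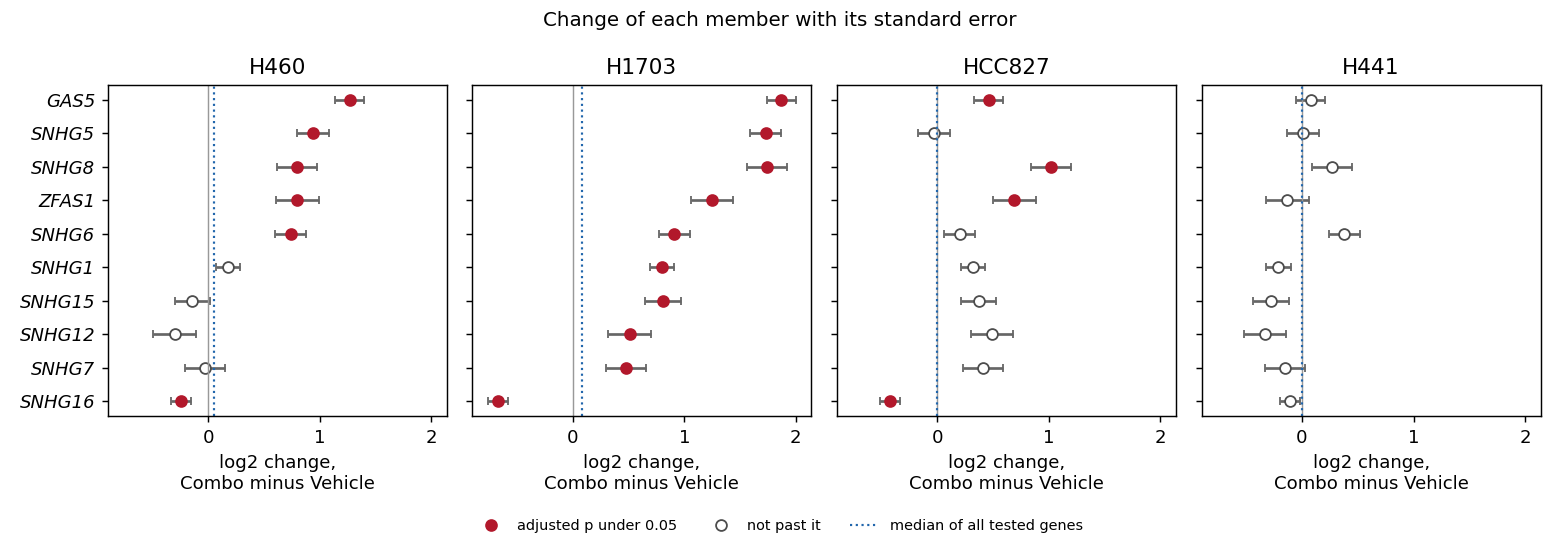
Change of each member in each line, Combo minus Vehicle on the deposited log2 scale (x axis), with its standard error; filled points passed the adjusted p threshold of 0.05 and the dotted line is the median of all tested genes. In H1703 all 10 points are filled and 9 lie to the right of 0, while in H441 all are open.

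In the lines called non-responsive the changes were fewer. In HCC827, 3 of 10 members passed upward and 1 downward, against 4.42% and 5.5% of all tested genes. In H441, 0 passed in either direction, against 2.77% upward and 1.86% downward. The limma test there gave 1 of 10 members with an unadjusted p under 0.05, SNHG6 (unadjusted p = 0.0169), against 4109 of all 23968 tested genes. After adjustment, voom on recovered reads also called 0 members. The median change of the members was 0.39 in HCC827 and -0.12 in H441, beside 0.00 over all tested genes in both.

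SNHG8 had the largest change in HCC827, with 98.8 and 125 normalised reads with Combo against 52.1 and 54.7 with Vehicle. It rose by 1.02 ± 0.18 (adjusted p = 0.000733). In H441 its Combo libraries, at 135 and 124, were above the Vehicle libraries, at 104 and 110, but the change of 0.27 ± 0.18 did not pass (adjusted p = 0.485). GAS5 had 1263 and 1429 normalised reads in HCC827 with Combo, against 902 and 1055 with Vehicle, and rose by 0.46 ± 0.13 (adjusted p = 0.033). In H441 the GAS5 libraries overlapped, at 601 and 783 with Combo and 554 and 756 with Vehicle, with a change of 0.08 ± 0.13 (adjusted p = 0.848). ZFAS1 had 109 and 134 normalised reads in HCC827 with Combo, against 76.4 and 71.9 with Vehicle, and rose by 0.69 ± 0.19 (adjusted p = 0.0244). Its H441 levels were 115 and 116 with Combo and 117 and 137 with Vehicle.

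SNHG16 fell in HCC827 too, to 765 and 728 normalised reads with Combo, against 1019 and 984 with Vehicle (-0.42 ± 0.09; adjusted p = 0.00303). In H441 its libraries overlapped, at 778 and 689 with Combo and 750 and 837 with Vehicle. Leaving out any 1 of the 4 HCC827 libraries ended the GAS5 call in that line (adjusted p 0.0511 to 0.29), and leaving out the second Combo library or either Vehicle library ended that of ZFAS1 (adjusted p 0.0926 to 0.227). With the HCC827 libraries alone, GAS5 and ZFAS1 also missed the threshold (adjusted p = 0.0701 and 0.0751).

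SNHG5 did not move beyond its spread in the non-responsive lines. It had 57.6 and 62.7 normalised reads in HCC827 with Combo, against 61.8 and 60.8 with Vehicle. In H441 it had 374 and 349 with Combo, against 368 and 352 with Vehicle. The changes were -0.03 ± 0.14 and 0.01 ± 0.14, and the 95% intervals of -0.32 to 0.27 and -0.29 to 0.30 leave out the rises seen in H460 and H1703.

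The other members were not called in these lines. SNHG6 had 487 and 515 normalised reads in HCC827 with Combo, against 402 and 470 with Vehicle, and in H441 148 and 153 with Combo, against 109 and 122 with Vehicle. SNHG1 had 346 and 391 in HCC827 with Combo, against 307 and 283 with Vehicle, and in H441 510 and 523 with Combo, against 607 and 590 with Vehicle. For both genes the Combo and Vehicle libraries did not overlap in either line, but the directions of SNHG1 were opposite, at 0.32 ± 0.11 in HCC827 (adjusted p = 0.0704) and -0.21 ± 0.11 in H441 (adjusted p = 0.331). Without either H460 Combo library, SNHG1 passed in HCC827 (adjusted p = 0.0418 and 0.0422), as it did under quantile normalisation (adjusted p = 0.0351). SNHG15 had 127 and 115 normalised reads in HCC827 with Combo, against 95.7 and 90.1 with Vehicle, and in H441 81.6 and 86.2 with Combo, against 90.6 and 116 with Vehicle. SNHG12 had 96.5 and 91.3 in HCC827 with Combo, against 61.8 and 70.9 with Vehicle, and in H441 113 and 160 with Combo, against 186 and 155 with Vehicle. Both had Combo above Vehicle in HCC827 without passing the threshold, with adjusted p of 0.167 for SNHG15 and 0.125 for SNHG12. SNHG7 was the least abundant member in H441, with 42.3 and 52.7 normalised reads with Combo and 53.0 and 52.1 with Vehicle. In HCC827 it had 108 and 146 with Combo, against 95.7 and 92.2 with Vehicle.

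No member was called upward in all 4 lines, although both Combo libraries of SNHG6 and of SNHG8 lay above both Vehicle libraries in each line. Over the single lines, 3 members (GAS5, SNHG8 and ZFAS1) were called upward in 3 lines, 2 (SNHG5 and SNHG6) in 2 lines, and 4 (SNHG1, SNHG7, SNHG12 and SNHG15) in 1 line. SNHG16 was called downward in 3 lines. Of all tested genes, 0.505% were called upward in all 4 lines and 0.384% downward. The shares of all tested genes called in fewer lines, or with libraries that did not overlap in each line, were not counted. The member counts for these have no background here.

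The mean change over both lines of a class was tested next. Over the responsive lines, 7 members passed upward and 1 downward, against 20.6% and 17.9% of all tested genes. GAS5 rose by 1.57 ± 0.09, SNHG5 by 1.34 ± 0.10, SNHG8 by 1.27 ± 0.12 and ZFAS1 by 1.02 ± 0.13 on the log2 scale. SNHG6 rose by 0.83 ± 0.10, SNHG1 by 0.49 ± 0.08 and SNHG15 by 0.34 ± 0.11, and SNHG16 fell by 0.45 ± 0.06. The adjusted p ranged between 5.99e-11 for GAS5 and 0.023 for SNHG15. The SNHG15 call ended after median-centring, at 0.12 (adjusted p = 0.481), and without any 1 of 5 libraries of these lines (adjusted p 0.0559 to 0.0981). Over the non-responsive lines, 1 member passed upward and 1 downward, against 6.25% and 6.05%. SNHG8 rose by 0.64 ± 0.12 (adjusted p = 0.00151) and SNHG16 fell by 0.27 ± 0.06 (adjusted p = 0.00571). GAS5, at 0.27 ± 0.09, had an adjusted p of 0.0687 and passed without the first H441 Combo library (0.37; adjusted p = 0.0232) or without the second H441 Vehicle library (0.38; adjusted p = 0.0131), and under quantile normalisation (0.29; adjusted p = 0.0436). SNHG6, at 0.29 ± 0.10 (adjusted p = 0.0723), passed without either H460 Vehicle library (adjusted p = 0.0481 and 0.047).

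The difference between the classes was tested directly, as the mean change of H460 and H1703 minus that of HCC827 and H441. It was positive for 9 members and passed for 6, and 0 passed in the other direction, against 11.2% of all tested genes above 0 and 12.1% below. The largest differences were 1.35 ± 0.14 for SNHG5 (adjusted p = 5.68e-07) and 1.30 ± 0.13 for GAS5 (adjusted p = 5.47e-07). ZFAS1 had 0.74 ± 0.19 (adjusted p = 0.00658), SNHG8 0.62 ± 0.18 (adjusted p = 0.0126), SNHG6 0.54 ± 0.14 (adjusted p = 0.00961) and SNHG1 0.43 ± 0.11 (adjusted p = 0.00548). SNHG16, which fell in both classes, did not pass at -0.18 ± 0.09 (adjusted p = 0.139), nor did SNHG7 (0.09 ± 0.18), SNHG12 (0.03 ± 0.19) or SNHG15 (0.29 ± 0.16). Median-centring lowers each of these differences by 0.21 and the upward share of called genes to 23.9% in place of 48%; SNHG5, GAS5 and ZFAS1 then stayed past the threshold, SNHG1, SNHG6 and SNHG8 did not (adjusted p 0.109 to 0.195), and SNHG16 passed at -0.39 (adjusted p = 0.00396). Each class is 2 lines, so that class and line cannot be told apart.

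The responsive lines also differed from each other. The change in H460 minus that in H1703 was negative for 9 members and passed the threshold downward for 6 and upward for 1, against 7.8% and 11.3% of all tested genes. SNHG15 differed by -0.95 ± 0.23 (adjusted p = 0.0048), SNHG8 by -0.93 ± 0.25 (adjusted p = 0.0105), SNHG12 by -0.81 ± 0.27 (adjusted p = 0.0408) and SNHG5 by -0.79 ± 0.20 (adjusted p = 0.0067). SNHG1 differed by -0.63 ± 0.15 (adjusted p = 0.00601) and GAS5 by -0.60 ± 0.19 (adjusted p = 0.032). SNHG16, which fell further in H1703, differed by 0.43 ± 0.12 (adjusted p = 0.0176), and under quantile normalisation this call ended, at 0.21 (adjusted p = 0.24). After median-centring, GAS5 and SNHG12 missed the threshold (adjusted p = 0.052 and 0.0674). Fewer calls stood without 1 library: 4 without the first H460 Vehicle library and 4 without the second H1703 Vehicle library. SNHG12 lost its call without any 1 of 7 of the 8 libraries of these lines, GAS5 without any 1 of 6, SNHG16 without any 1 of 3, and SNHG8 without the first H460 Vehicle library (-0.65; adjusted p = 0.0791). Between the non-responsive lines, 0 members differed in their change by limma, against 0.697% of all tested genes upward and 1.31% downward in HCC827 minus H441. At an unadjusted limma p under 0.05, 7 of the 10 members differed, against 3462 of all 23968 tested genes. These 7 were SNHG1 (0.53 ± 0.15), SNHG7 (0.56 ± 0.26), SNHG8 (0.75 ± 0.25), SNHG12 (0.82 ± 0.27), SNHG15 (0.65 ± 0.23), ZFAS1 (0.82 ± 0.27) and SNHG16 (-0.31 ± 0.12). After adjustment, voom on recovered reads called 0 members. SNHG1 passed when either H460 Combo library was left out (adjusted p = 0.0434 and 0.044). Under quantile normalisation, the upward share of called genes in this comparison was 48.5% in place of 34.7%.

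Vehicle levels of some members differed between the classes, as did those of many other genes. The mean of H460 and H1703 minus that of HCC827 and H441 passed upward for 5 members and downward for 2. Of all tested genes, 28.8% passed upward and 27.6% downward, so these counts set the members little apart. SNHG7 was higher in the responsive lines by 1.18 ± 0.13 (adjusted p = 1.27e-07), SNHG16 by 0.82 ± 0.06 (adjusted p = 3.96e-10), SNHG8 by 0.72 ± 0.12 (adjusted p = 4.94e-05) and SNHG15 by 0.65 ± 0.11 (adjusted p = 5.3e-05). SNHG12 was higher by 0.32 ± 0.14 (adjusted p = 0.0493), a call that ended in 12 of the 16 single-library omissions (adjusted p 0.051 to 0.261). SNHG6 was lower by 0.78 ± 0.10 (adjusted p = 1.57e-06) and SNHG1 by 0.52 ± 0.08 (adjusted p = 7.27e-06). GAS5 did not pass (0.13 ± 0.09; adjusted p = 0.276) and neither did SNHG5 (0.19 ± 0.10; adjusted p = 0.116), so the members with the largest class difference in response were not called for a difference in Vehicle level. SNHG5 did pass after median-centring (0.27; adjusted p = 0.0313), under quantile normalisation (0.23; adjusted p = 0.0412) and without the second H1703 Vehicle library (0.26; adjusted p = 0.048), which also brought ZFAS1 past the threshold (-0.37; adjusted p = 0.0258), and GAS5 passed without the second H441 Vehicle library (0.24; adjusted p = 0.0391). SNHG5 in Vehicle was not alike within a class, at 344 and 333 normalised reads in H460 and 94.5 and 77.1 in H1703, and at 61.8 and 60.8 in HCC827 and 368 and 352 in H441.

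Between genes, levels are compared per kilobase of annotated exon. The exons of all transcripts of a gene were joined, which gives 3756 bases for SNHG1, of a span of 3927. The order of the genes therefore depends on the annotation. Of the members, GAS5 had the highest mean in 3 lines with Combo, at 823 ± 73.5 normalised reads per kb in H460, 618 ± 26.2 in H1703 and 191 ± 35.4 in H441 (SD, n = 2). In HCC827 with Combo, SNHG6 came first at 402 ± 15.6 per kb, and GAS5 at 371 ± 32.5 lay within the spread of it. With Vehicle, SNHG16 was first in H1703 at 324 ± 19.8 per kb, above GAS5 at 168 ± 9.19. GAS5 was first with Vehicle in H460 at 340 ± 26.2 and in H441 at 180 ± 38.9 per kb, and in H441 SNHG1 at 160 ± 3.54 and SNHG16 at 148 ± 11.3 lay within its spread. SNHG7 was last in H1703 and H441 under both treatments.

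GAS5 and SNHG16, which moved in opposite directions, made up different shares of the host RNA with Combo and with Vehicle. GAS5 made up 41.0 and 43.0% of the reads of the 10 members in the H1703 Combo libraries, against 18.2 and 18.3% in the Vehicle libraries. SNHG16 made up 20.7 and 20.2% in H1703 with Combo, against 51.4 and 52.3% with Vehicle. In H460, GAS5 took 45.5 and 46.2% with Combo and 28.5 and 28.4% with Vehicle. In H441 the shares of GAS5 overlapped, at 20.8 and 25.8% with Combo and 18.9 and 23.4% with Vehicle. These are shares of reads, which longer transcripts raise. Together the 10 hosts were 0.026 to 0.0599% of all reads, with the highest values in the H1703 and H460 Combo libraries, and a member had 42 to 2936 reads in a library.

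**Figure D3:**
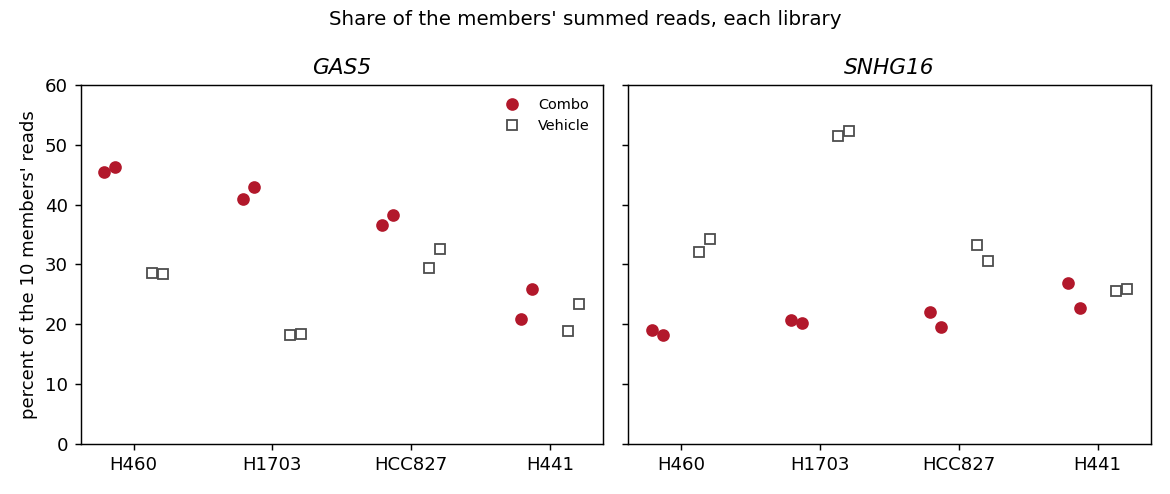
Percent of the summed reads of the 10 members that came from GAS5 (left) and SNHG16 (right), for each library by line (x axis); filled circles are Combo and open squares Vehicle. In H1703 the 2 genes trade places, with GAS5 at 41.0 and 43.0% with Combo and 18.2 and 18.3% with Vehicle.

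Other snoRNA host lncRNAs moved in both directions. Of 19 listed, 18 were in the table and 17 were tested; 5 passed upward and 2 downward over the responsive lines, and 3 upward and 0 downward over the non-responsive lines, with medians of 0.23 and 0.06. Of all tested genes, 20.6% passed upward and 17.9% downward over the responsive lines, so that both responsive counts of these hosts lie near the background. Over the non-responsive lines the shares were 6.25% and 6.05%. These shares are the background of each list count that follows. SNHG29, earlier known as LRRC75A-AS1, rose by 1.37 ± 0.09 in H460, 1.17 ± 0.09 in H1703 and 0.95 ± 0.09 in HCC827 (adjusted p = 6.62e-10, 4.16e-09 and 1.11e-06). EPB41L4A-AS1, the host of SNORA13, rose in the same 3 lines, by 0.49, 0.68 and 0.61 (adjusted p = 0.0347, 0.00299 and 0.0219). SNHG22 rose in H1703 by 2.60 (adjusted p = 6.59e-07) and not in H460 (-0.57; adjusted p = 0.178). SNHG32, with a mean of 4.11 normalised reads, passed in H1703 at 2.43 (adjusted p = 0.00476). The 2 that fell over the responsive lines, named here after their values were seen, were SNHG4 (-0.83 ± 0.15; adjusted p = 0.000166) and DANCR (-0.71 ± 0.18; adjusted p = 0.00393).

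Among 19 protein-coding hosts, 6 rose and 9 fell over the responsive lines, against 20.6% and 17.9% of all tested genes, and 6 rose and 4 fell over the non-responsive lines, against 6.25% and 6.05%. EEF2, the ribosome translocation factor, rose in each of the 4 lines, with changes of 0.60 (H460), 0.82 (H1703), 0.44 (HCC827) and 0.41 (H441) (adjusted p 9.2e-10 to 0.000287). HSPA8, the constitutive cytosolic HSP70 chaperone, fell in all 4, with changes of -1.05, -1.55, -0.51 and -0.46 in the same order of lines (adjusted p 3.58e-13 to 0.000159). RCC1, the nucleotide exchange factor of the GTPase Ran, changed by -1.37 in H460 and -1.17 in H1703 (adjusted p = 2.5e-10 and 1.55e-09), and its changes of -0.04 and -0.13 in HCC827 and H441 did not pass. TAF1D, a subunit of the RNA polymerase I factor SL1, rose by 0.57 in H460 and 1.12 in H1703 (adjusted p = 0.000137 and 1.51e-08).

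The proteins that bind and mature snoRNAs moved the other way to most of the members. Of 19 snoRNP proteins and assembly factors, 0 rose and 13 fell over the responsive lines, with a median of -0.36, and 2 rose and 1 fell over the non-responsive lines, with a median of -0.03. SHQ1, the assembly chaperone of dyskerin, changed by -0.78 in H460, -0.68 in H1703 and -0.52 in HCC827 (adjusted p = 0.000514, 0.00134 and 0.033). NHP2, a core H/ACA protein, fell by 0.77 in H1703 (adjusted p = 0.000472), and RUVBL2, an ATPase of the R2TP assembly complex, changed by -0.88 in H1703 and -0.44 in H460 (adjusted p = 1.42e-06 and 0.00327). ZNHIT6, a C/D snoRNP assembly factor, rose by 0.53 in HCC827 (adjusted p = 0.00369).

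Factors of nonsense-mediated decay, which degrades spliced hosts, were mixed: of 20, 3 rose and 9 fell over the responsive lines, and 1 rose and 1 fell over the non-responsive lines. All tested genes had 20.6% upward and 17.9% downward in the responsive lines, and 6.25% and 6.05% in the non-responsive lines, so that the upward count and both non-responsive counts lie near the background. EIF4A3, the anchor of the exon junction complex, changed by -0.96 in H460 and -0.94 in H1703 (adjusted p = 3.94e-08 and 3.44e-08). RBM8A, of the same complex, changed by -0.62 and -0.67, and GSPT1, a translation release factor, by -0.48 and -0.69 in H460 and H1703 (adjusted p at most 6.4e-05). NBAS rose by 0.64 and 0.53 (adjusted p = 0.000203 and 0.000882). Of 11 protein-coding genes known as targets of the decay, 8 rose and 1 fell over the responsive lines (median 0.84), and 7 rose and 0 fell over the non-responsive lines (median 0.52). DDIT3 rose by 2.16, 2.76, 1.97 and 1.02 in H460, H1703, HCC827 and H441 (adjusted p at most 2.31e-05), and ATF3 by 3.54, 2.45, 0.88 and 0.88 (adjusted p at most 0.00377). UPP1 rose in all 4 lines as well, and GADD45A in H460, H1703 and HCC827. These 4 are among the listed genes also known as transcriptional targets of stress signalling. The part of decay in the change of any of the 11 genes was not tested. Over the responsive lines, TBL2 (-0.09) and MAP3K14 (-0.12) were not called, SMG1 rose by 0.27 and SMG5 changed by -0.33. In H441, 6 of these 11 genes and 0 of the 10 hosts were called upward, against 2.77% of all tested genes.

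Genes whose mRNAs carry a TOP start shared the direction of most hosts. Of 18 tested translation factors and related genes outside the ribosomal proteins, 14 rose and 1 fell over the responsive lines (median 0.40), and 8 rose and 1 fell over the non-responsive lines (median 0.15). EEF1A1, the elongation factor that delivers aminoacyl-tRNA, changed by 0.86 (H460), 0.77 (H1703), 0.28 (HCC827) and 0.33 (H441) (adjusted p at most 0.0336). TPT1, the translationally controlled tumour protein, rose by 0.91, 0.44 and 0.36, and EEF1B2 by 0.80, 0.55 and 0.44, in H460, H1703 and HCC827 (adjusted p at most 0.00411). EEF2 and EEF1B2, with RACK1 and TPT1, are also protein-coding hosts and stand on both lists. Of 15 regulators of TOP mRNAs and of mTOR, 6 rose and 7 fell over the responsive lines. SESN2 and DDIT4, stress-induced inhibitors of mTOR signalling, rose in all 4 lines, SESN2 by 2.92, 2.24, 2.03 and 0.81 and DDIT4 by 1.45, 1.76, 1.65 and 1.12 in H460, H1703, HCC827 and H441. EIF4EBP1 rose in all 4 lines, with changes of 1.33, 0.33, 0.99 and 0.71 in that order, and EIF4EBP2 fell, with changes of -0.84, -1.76, -0.66 and -0.46; both encode translation repressors that mTOR phosphorylates (adjusted p at most 0.023 for these 4 genes in each line).

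**Figure D4:**
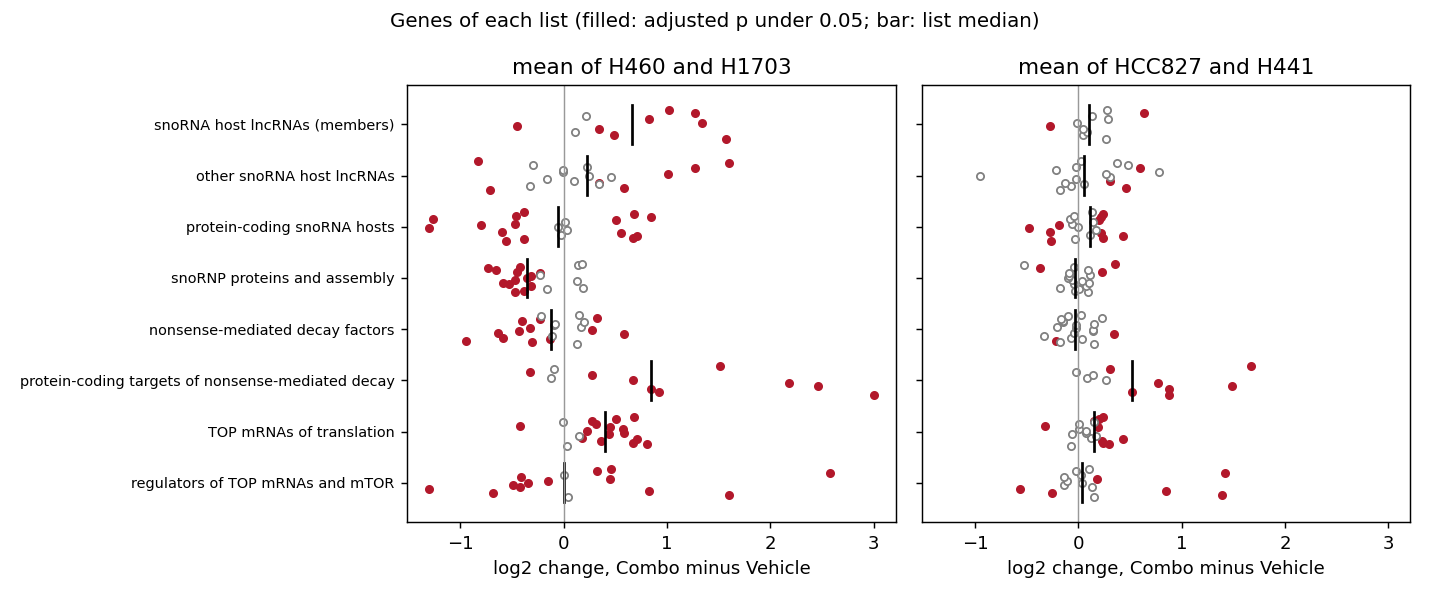
Log2 change, Combo minus Vehicle, of every tested gene of each list (x axis), as the mean of the responsive lines H460 and H1703 (left) and of the non-responsive lines HCC827 and H441 (right); filled points passed an adjusted p of 0.05 and the bar is the list median. The hosts (median 0.66) and the targets of nonsense-mediated decay (0.84) lie to the right in the responsive lines, and the snoRNP proteins (-0.36) to the left.

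Genes that start beside a host on the opposite strand did not all follow it. SLC3A2, a subunit of amino acid transporters, starts 188 bases from SNHG1 and rose in every line, with changes of 0.36 ± 0.10 (H460), 1.53 ± 0.10 (H1703), 1.07 ± 0.10 (HCC827) and 0.78 ± 0.10 (H441) (adjusted p 5.79e-10 to 0.0137), while SNHG1 was called in H1703. ZBTB37 starts 800 bases from GAS5, overlaps it, and rose by 0.35 ± 0.11 in H460 and 1.06 ± 0.11 in H1703 (adjusted p = 0.0218 and 1.94e-07). In HCC827, where GAS5 rose, ZBTB37 fell by 0.39 ± 0.11 (adjusted p = 0.0275). ZNFX1, which encodes a helicase, starts 248 bases from ZFAS1 and also overlaps it. Its changes were 0.06 to 0.12 in the 4 lines, none past the threshold (adjusted p 0.566 to 0.719).

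Genes that overlap a host on the opposite strand need care, because no source used here gives the strand setting of the counting, and without it reads of overlapping genes cannot be told apart. GAS5-AS1 rose with GAS5 in H460 (1.30 ± 0.36; adjusted p = 0.00923) and H1703 (1.64 ± 0.36; adjusted p = 0.00108), at a mean of 34.0 normalised reads. MCMDC2, which overlaps SNHG6, rose in the same lines as SNHG6, by 0.73 ± 0.21 and 1.15 ± 0.21 (adjusted p = 0.0144 and 0.000234). The unnamed protein-coding gene ENSG00000284526, which overlaps SNHG16, fell with it in H460 (-0.28), H1703 (-0.85) and HCC827 (-0.43), with adjusted p of 0.0418, 9.03e-07 and 0.00763. DIPK1B, which overlaps SNHG7, rose in H1703 (0.79 ± 0.23; adjusted p = 0.00972). TRNAU1AP, which overlaps SNHG12, passed in no line (-0.13 to 0.08). The antisense gene ENSG00000267546, which starts 83 bases from SNHG16, had a mean of 11.7 normalised reads and passed in no line.

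**Figure D5:**
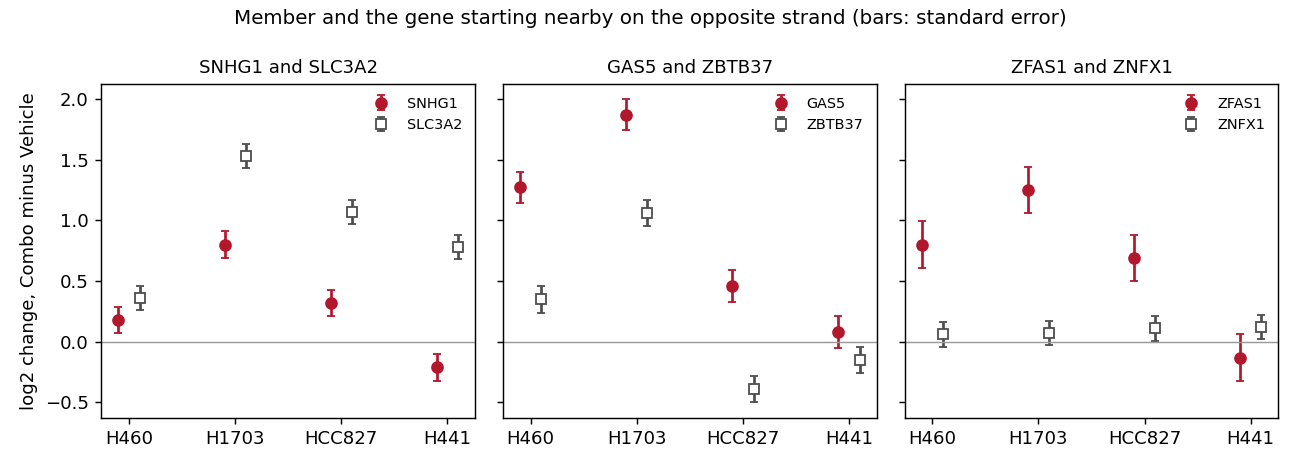
Log2 change, Combo minus Vehicle, with its standard error (y axis), in each line (x axis), of SNHG1, GAS5 and ZFAS1 (filled circles) and of the gene starting nearby on the opposite strand (open squares). SLC3A2 is above SNHG1 in every line, and ZNFX1 stays between 0.06 and 0.12 where ZFAS1 reaches 1.25.

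The snoRNAs themselves had few reads. By GENCODE 29, 4 snoRNAs within the members had a row in the table: SNORD99 in SNHG12 with 7 to 49 reads per library, SNORD1B in SNHG16 with 0 to 12, and SNORD12C and SNORD12B in ZFAS1 with 1 to 15 and 2 to 21. No change in a line passed the threshold (lowest adjusted p 0.179, for SNORD99 in H460). The standard errors of their changes in a line were 0.37 for SNORD99, 0.46 for SNORD12B, 0.54 for SNORD12C and 0.79 for SNORD1B, larger than those of their hosts. In H1703, SNORD12B had a change of -0.51 ± 0.46 and SNORD12C of -0.04 ± 0.54, where that of their host ZFAS1 was 1.25 ± 0.19. The difference between a snoRNA and its host was not tested.

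Across the 16 libraries, the protein-coding genes outside the lists whose values were most like the mean profile of the members were PRKAG1 (Pearson r = 0.947), FLYWCH1 (0.939), HSPA5 (0.938), SIPA1L2 (0.926), NEK1 (0.921) and MAP9 (0.919). PRKAG1 encodes a subunit of the kinase AMPK and HSPA5 the main chaperone of the endoplasmic reticulum. The libraries share lines and treatments, so these values describe likeness over 8 groups. Of the members, SNHG8 was closest to the mean profile (r = 0.968) and SNHG6 farthest (r = 0.007). SNHG1 (r = 0.146) and SNHG16 (r = 0.216) were also unlike it, so the profile does not describe every member. Each member is itself part of the mean profile, which raises its r.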

How the data were processed

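Total RNA libraries (SMARTer stranded kit, per the labels' protocols) of 4 lines were processed with Trimmomatic, STAR and featureCounts on GRCh38, per the submitters' processing notes. Neither their versions nor the annotation release are stated in those notes. The table the authors deposited holds variance-stabilised counts on a log2 scale, for 28951 genes, and its values show 1 size factor for each library. Inverting it returned reads that were whole to within 0.02 in 100% of values, 8493271 to 13604150 reads per library, and reads divided by the size factors are called normalised reads.

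Genes whose mean lay at least 1 above the lowest value (0.480538) were tested, 23968 in all. One limma 3.58.1 fit (R 4.3.3) of 8 group means, with empirical Bayes trend and robust settings, gave every change, standard error and p-value, with Benjamini-Hochberg adjustment over all tested genes and a threshold of 0.05. The fit was tested on simulated data. Alternatives were other scalings, no filter, plain empirical Bayes, single-line fits, a replicate block, voom on recovered reads, and each library left out. With 2 libraries per group, precision rests on the spread pooled over the groups.

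The members and gene lists were chosen with earlier results of these data known, from general knowledge, and of each list up to 4 called genes with the largest mean change are named. Also named are genes starting within 5 kb of a host or overlapping it on the opposite strand (1 of these is not reported here), hosted snoRNAs, and the 6 protein-coding genes most like the members' mean profile. Positions and transcripts are from GENCODE 29, which held 28846 gene identifiers, 2 of the 10 members in another version, and sequences from GENCODE 29 and RefSeq. Not in the table were SNHG18 and EEF1G, and SNHG9 was not tested for low values. Python 3.11.15, pandas 2.3.3 and matplotlib 3.10.9 were used.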

Additional observations from a re-analysis of the deposited data

Results flagged for a closer look

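Responses that differed between lines under the same contrast, by a limma test of the difference itself over all tested genes, are listed here. Between the classes (mean change of H460 and H1703 minus that of HCC827 and H441), the difference was 1.35 ± 0.14 for SNHG5, 1.30 ± 0.13 for GAS5, 0.74 ± 0.19 for ZFAS1, 0.62 ± 0.18 for SNHG8, 0.54 ± 0.14 for SNHG6 and 0.43 ± 0.11 for SNHG1 (adjusted p 5.47e-07 to 0.0126). Between the responsive lines (change in H460 minus that in H1703), it was -0.95 ± 0.23 for SNHG15, -0.93 ± 0.25 for SNHG8, -0.81 ± 0.27 for SNHG12, -0.79 ± 0.20 for SNHG5, -0.63 ± 0.15 for SNHG1, -0.60 ± 0.19 for GAS5 and 0.43 ± 0.12 for SNHG16 (adjusted p 0.0048 to 0.0408). That of SNHG16 was 0.21 (adjusted p = 0.24) under quantile normalisation. Groups of 2 libraries are too small to look for a library that stands apart.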

How the results depend on the processing

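Of 100 changes (10 members in 10 comparisons), 50 were past the threshold, 32 of them under every alternative run, and none turned its direction while past it. Numbers of members past the threshold moved by over 1.5 times in these cases. In fits of single lines, 3 members passed in H460 in place of 6 and 2 in HCC827 in place of 4. With neither trend nor robust settings, 1 passed in HCC827 in place of 4, 1 over the non-responsive lines in place of 2, and 4 in the difference between H460 and H1703 in place of 7. Leaving out each library in turn gave 2 to 5 members in HCC827, 4 to 7 in the difference between H460 and H1703, and 0 to 1 in that between HCC827 and H441. Over all tested genes, deviations of same-numbered libraries correlated at -0.022 to 0.032 between groups, and at 0.014 to 0.032 between the 2 groups of a line. Whether same numbers pair the libraries for a single member was not tested. With a replicate block within each line, 8 members passed over the responsive lines, as without it, and 3 over the non-responsive lines in place of 2, where GAS5 passed (adjusted p = 0.00772). SNHG16 in H460 (adjusted p = 0.0588) and SNHG12 in H1703 (0.0611), in the difference between H460 and H1703 (0.061) and in that between the classes in Vehicle (0.0673) then missed it. The causes were not tested. A member had 42 to 2936 reads per library, and each of the 4 listed snoRNAs within members had 0 to 49.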
